A study of Mus musculus with 14 samples.

Results

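The cytoplasmic ribosomal protein genes were followed here in the superior colliculus of newborn mice, a midbrain centre that receives axons from the retina. Members were chosen by gene symbol (Rpl or Rps and a number, Rplp0, Rplp1, Rplp2 or Rpsa), by a protein-coding annotation, and by a measured mean of 10 CPM (counts scaled to a common library total) or more over all libraries. The rule left 75 members of 80 candidates by symbol and of 55359 gene IDs in each table. They comprised 42 proteins of the large subunit, the 3 P proteins of its stalk, and 30 proteins of the small subunit. All 75 passed the filter on low counts that left 20330 genes for testing.

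RNA was measured by poly-A selected RNA sequencing of microdissected tissue from ICR/CD-1 mice at postnatal day 6. At postnatal day 0 to 1 the pups had received 0.3 to 0.5 µL of a solution in the vitreous humour of the eye. The solution was either 50 mM carbenoxolone (cbx), a blocker of gap junctions used to stop the spontaneous activity waves of the retina, or saline. The groups were cbx superficial (n = 4 libraries), saline superficial (n = 3), cbx deep (n = 4) and saline deep layers (n = 3). Because 3 brains went into every library, the spread behind each p-value is one between pools, not pups. Saline animals also had an injected eye. Library numbers follow the sample titles.

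A ribosome has a small subunit, which reads the messenger RNA, and a large subunit, which joins the amino acids. Each subunit is built on ribosomal RNA in the nucleolus from proteins made in the cytoplasm and imported. Because the proteins are needed in equal numbers, their messenger RNAs are made in a coordinated way, and in vertebrates they start with a run of pyrimidines, the 5′ terminal oligopyrimidine (TOP) motif. Through this motif the growth-sensing kinase complex mTORC1 sets how much of the messenger RNA is translated, with the RNA-binding protein Larp1 as its effector. In developing neurons, ribosomal proteins are also made in growing axons.

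The start-site regions of some members are given first, because the TOP motif is a known mark of this group that the selection rule did not use. Of the 75 members, 55 were matched by symbol in a table of RefSeq promoters (build GRCm38.p6), with 66 windows of 250 bases before to 50 bases after an annotated start. The motif searched was a run of at least 8 C or T bases that begins with C, on the sense strand, within 50 bases of the start on either side. Each line shows 30 bases, 5′ to 3′ on the sense strand. The longest run is in capitals, or the first of equally long runs. The first 5 genes were among the 10 members with the smallest p-values between the layers after cbx. Rps2 and Rpl13a are shown because they had the lowest differences there. Rpl26 and Rpl35a are shown because they followed the other members least.
Rps9: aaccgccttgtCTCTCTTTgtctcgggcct
Rpl5: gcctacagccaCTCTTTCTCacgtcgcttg
Rps6: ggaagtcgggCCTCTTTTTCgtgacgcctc
Rps25: ccaccgggCTTCCTTTTTTTCCgacatctt
Rps27l: ccccgcctccaCTCCTCTCCactcctcccc
Rps2: aaattgtcccttccgcggcgCCTCCCTCTT
Rpl13a: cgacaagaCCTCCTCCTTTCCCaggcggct
Rpl26: tcccaacctCCTCTCCCCTTTCgctccgag
Rpl35a: cggggcttgCCTTCCTCTTTCCgccatctt
Their positions in GRCm38.p6 are chr7:3704025-3704054 (plus strand) for Rps9, chr5:107900497-107900526 (plus) for Rpl5, chr4:86857349-86857378 (minus) for Rps6 and chr9:44407684-44407713 (plus) for Rps25. They are chr9:66946053-66946082 (plus) for Rps27l, chr17:24720083-24720112 (plus) for Rps2, chr7:45128722-45128751 (minus) for Rpl13a, chr11:68901508-68901537 (plus) for Rpl26 and chr16:33056468-33056497 (plus) for Rpl35a. Counted from the annotated start of transcription, with the first transcribed base as 1, the run begins at -5 in Rps9, -20 in Rpl5, -1 in Rps6 and -22 in both Rps25 and Rps27l. It begins at 41 in Rps2, where it reaches the end of the window, and at 3 in Rpl13a. In Rpl26 it is marked from -49, because the search began 50 bases before the start. The C and T bases just before it, in lower case, belong to the same stretch. In Rps27l another run of equal length follows the marked one, in lower case. Rpl35a has 3 annotated starts, from which the run begins at -37, -5 and 25.

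Such a run was present in 48 of the 55 matched members (87.3%), against 32.0% of the 27025 genes in the table and 32.8% of the 8181 genes with a mean of 10 CPM or more. The hexamer CGGAAG, the core bound by ETS-family factors such as GABP, was found on either strand of the whole window in 69.1% of the members. It was found in 18.8% of all genes of the table and in 35.2% of those at 10 CPM or more. The TATA element TATAAA, searched on both strands, occurred in 10.9% of the members, in 15.7% of all genes and in 8.02% of those at 10 CPM or more. Rps9, with a large layer difference, and Rps2, with the lowest, both carry a run, which begins at -5 and at 41. Only genes with a run are printed, so these lines cannot tell whether the run goes with the layer difference. A match describes these letters only.

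Library depth was 32004952 to 48776827 gene counts. Mitochondrially encoded genes took 2.97% to 4.66% of the counts, and 307 annotated ribosomal protein pseudogenes took 0.0552% to 0.0774%. The genes of the neuron list, among them Snap25 and Tubb3, summed to 4904 to 6043 CPM, and no marker gene of any list was at 0 in any library. Same-numbered superficial and deep libraries deviated together. The sexes were mixed unequally: saline pool 1 had only 1.94 CPM of Xist, the RNA of the inactive X, in its superficial and 0.572 CPM in its deep library, and cbx pool 4 had no count of the Y-linked Ddx3y in either layer.

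The members together took 2.61% ± 0.289 of all gene counts in cbx superficial (SD, n = 4), 2.30% ± 0.129 in saline superficial (n = 3), 2.11% ± 0.147 in cbx deep (n = 4) and 2.24% ± 0.0929 in saline deep libraries (n = 3). By library number, the shares were 3.03%, 2.58%, 2.45% and 2.39% in cbx superficial, and 2.19%, 2.27% and 2.45% in saline superficial libraries. They were 2.24%, 1.99%, 1.98% and 2.23% in cbx deep, and 2.20%, 2.17% and 2.34% in saline deep libraries. Every cbx superficial library lay above every cbx deep library, while cbx and saline overlapped in each layer. Library 1 of cbx superficial stood highest of all 14. It also had the highest share of counts on other short transcripts, 6.97% against 5.35% to 6.26% in the other libraries.

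**Figure D1:**
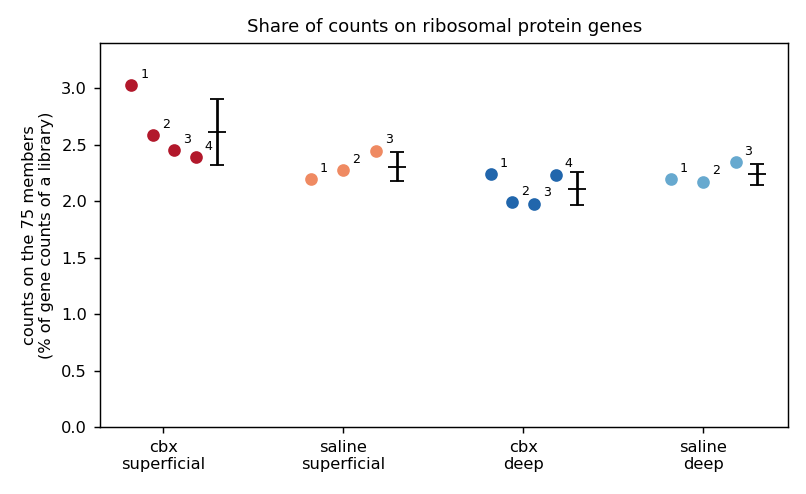
Percent of a library's gene counts that fell on the 75 members, by group; each point is a library with its number, and the bar beside it is the mean with its SD. The 4 cbx superficial libraries sit between 2.39% and 3.03%, above the 4 cbx deep libraries at 1.98% to 2.24%.

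Single members differed widely in level. The mean CPM over the 14 libraries had a median of 288 over the members and ran from 15.0 for Rpl13a to 1067 for Rpsa, the laminin receptor protein of the small subunit. Per kb of transcript, the highest were Rplp1 of the stalk at 1422, Rps29 at 953 and Rpl41, the smallest protein of the ribosome, at 838 CPM per kb. The lowest were Rpl13a at 14.4, Rps27l at 34.7 and Rps15a at 51.8 CPM per kb, against a median of 324. The length used for Rps15a was 5179 bases, the longest of the members, whose median was 878.

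The level rule had its edge among these genes. Just inside the minimum of 10 CPM were Rpl13a at 15.0, Rps27l at 17.4 and Rpl26 at 67.8 CPM. Just outside were Rps10 at 2.71, Rpl24 at 0.624 and Rpl3l, the heart and skeletal muscle form of Rpl3, at 0.287 CPM. Rpl39l and Rpl10l, known from the testis, were at 0.11 and 0.00431 CPM. Rpl13a, Rpl24 and Rps10 are core proteins that every ribosome holds. In the GENCODE M21 annotation 35.4% of the exon bases of Rpl13a, 47.0% of those of Rpl24 and 20.6% of those of Rps10 are shared with another gene on the same strand. Counting with another annotation could give these genes other levels, and its part in the low values was not tested.

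Some ribosomal proteins did not meet the symbol rule. Rps3a1 (264 CPM), Fau (317 CPM), which encodes Rps30 behind a ubiquitin-like domain, and Rack1 (393 CPM), a scaffold on the small subunit, were as abundant as the members. Rpl22l1, a paralog of Rpl22, was at 32.3 CPM.

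Most calls among the members came between the layers after cbx. In that comparison 52 of the 75 members were higher in the superficial than in the deep layers and 0 were lower, at an adjusted p under 0.05 (edgeR's quasi-likelihood test, Benjamini-Hochberg over all 20330 genes). Of all genes tested, 18.1% were called higher and 14.1% lower, and among the 10438 genes at 10 CPM or more 22.0% were called higher. The median log2 difference of the members was 0.28, against 0.018 for all genes tested and 0.027 for genes at 10 CPM or more. Of the members, 74 had a positive difference. In the large subunit without the stalk 28 of 42 were called higher, in the stalk 2 of 3, and in the small subunit 22 of 30, with medians of 0.29, 0.24 and 0.28. Fewer cells of a type and less RNA per cell cannot be told apart in bulk tissue.

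**Figure D2:**
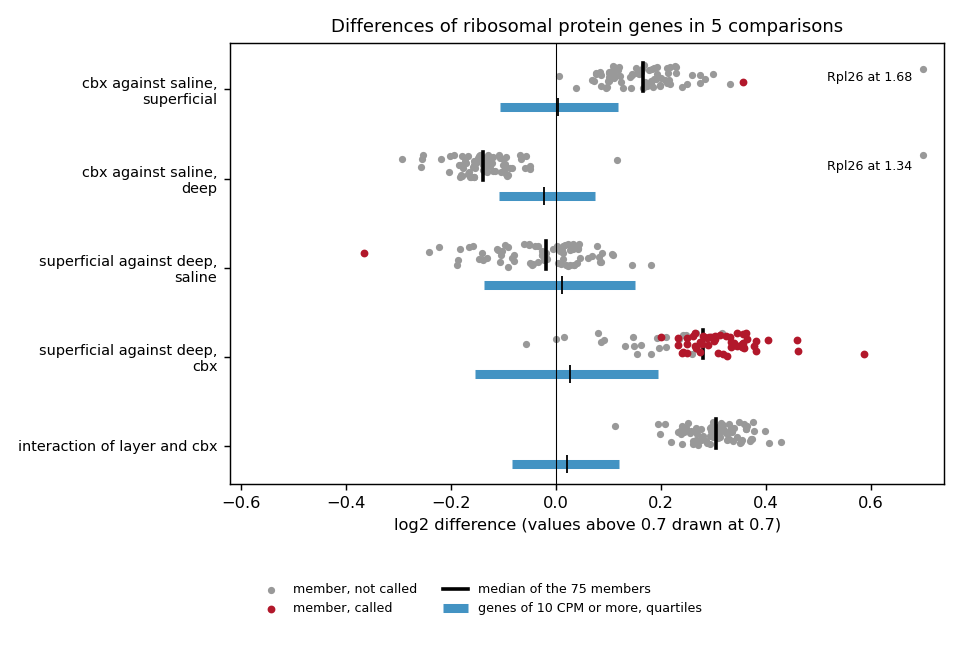
Log2 differences of the 75 members in 5 comparisons (dots, red where called at an adjusted p under 0.05; black line, their median), above the quartiles and median of the genes with a mean of 10 CPM or more (blue bar with a tick). The members' median is 0.28 between the layers after cbx and -0.018 between the layers after saline; 2 values of Rpl26 lie beyond the axis and are drawn at its edge.

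Rps9, a small-subunit protein near the entry of the messenger RNA, had 613, 497, 518 and 464 CPM in cbx superficial libraries, against 396, 368, 360 and 397 CPM in cbx deep libraries. The groups did not overlap. Its log2 difference was 0.46 (SE 0.076, adjusted p = 8.58e-05). After saline it had 420, 449 and 472 CPM in the superficial layers and 393, 396 and 423 CPM in the deep layers, and those groups overlapped (log2 difference 0.15, adjusted p = 0.290).

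Rpl5 binds the 5S ribosomal RNA together with Rpl11, and outside the ribosome both hold back Mdm2, the inhibitor of p53. Rpl5 had 327, 297, 288 and 286 CPM in cbx superficial libraries, against 243, 214, 226 and 253 CPM in cbx deep libraries. All superficial libraries lay above all deep ones, with a log2 difference of 0.36 (SE 0.064, adjusted p = 0.000199). For Rpl11 the means were 370 ± 25.2 CPM in cbx superficial and 306 ± 23.6 CPM in cbx deep libraries (SD, n = 4 each). Its log2 difference was 0.27 (SE 0.072, adjusted p = 0.00641).

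Rps6 is the phosphorylated target of the S6 kinases that act below mTORC1. Its levels were 284, 268, 287 and 268 CPM in cbx superficial, against 230, 219, 220 and 245 CPM in cbx deep libraries. The groups did not overlap (log2 difference 0.28, SE 0.060, adjusted p = 0.00133). Rps25, a protein of the small-subunit head, had 334, 272, 247 and 248 CPM in cbx superficial and 229, 187, 196 and 219 CPM in cbx deep libraries. Its log2 difference was 0.40 (SE 0.088, adjusted p = 0.00143), and library 1 stood above the other 3 superficial ones.

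Others among the 10 smallest p-values were Rpl7 (log2 difference 0.46), Rpl19 (0.38), Rpl22 (0.35), Rpl23 (0.34) and Rps27a, which is made as a fusion with ubiquitin (0.34). In each of these 5 genes every cbx superficial library lay above every cbx deep library. The 5 were picked by their p-values between the same groups, so this separation adds no support. Its share over all genes was not counted. Both limits apply equally to the separation of Rps9, Rpl5 and Rps6 above, and of Rps2 and Rps27l in later paragraphs. Further members of known role that rose in superficial against deep layers after cbx were Rps3 (0.34), which also acts in DNA repair, Rps4x (0.38), Rps18 (0.36) of the small-subunit head, Rpl3 (0.30) at the peptidyl transferase centre and Rpl10 (0.38), a late joining large-subunit protein. In the stalk, which recruits the GTPases of translation, Rplp2 rose (0.33, adjusted p = 0.0170) and Rplp0 rose (0.24, adjusted p = 0.0362). Rplp1 had a log2 difference of 0.13 that did not pass (adjusted p = 0.294).

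The 23 members that did not pass included some of the shortest transcripts, such as Rpl41 (0.15), Rps29 (0.16), Rpl39 (0.23), Rpl38 (0.26), Rpl36a (0.16) and Rps27 (0.19). They also included Rps19 (0.080), whose human counterpart is mutated in Diamond-Blackfan anaemia. Short transcripts were also among those that passed, such as Rps27l (499 bases) and Rps18 (560 bases). The lowest differences of all members were those of Rps2 at -0.056, Rpl13a at 0.0012 and Rpsa at 0.016. Rpsa, the most abundant member by CPM, had 1193, 1069, 1064 and 946 CPM in cbx superficial, against 1141, 957, 998 and 1129 CPM in cbx deep libraries. Its groups overlapped.

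**Figure D3:**
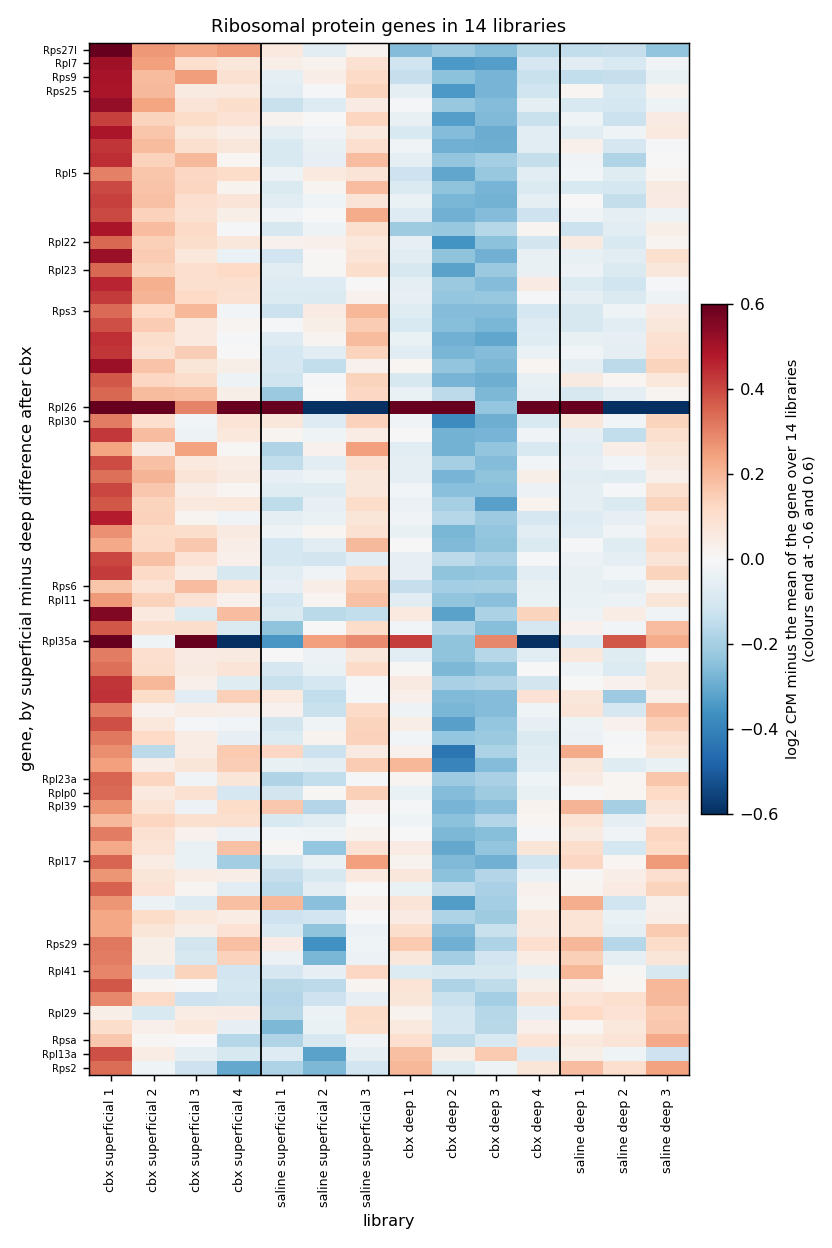
Log2 CPM of each member (rows) in each of 14 libraries (columns) minus the mean of the gene, with red above and blue below that mean and rows ordered by the superficial minus deep difference after cbx; names stand beside some of the members described in the text. Library 1 of cbx superficial is red in nearly all rows and libraries 2 and 3 of cbx deep are blue in most; Rpl26 and Rpl35a follow other patterns.

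The layer difference after cbx was uneven over the pools. Taking superficial minus deep within each library number, the median log2 difference of the members was 0.39 in cbx pool 1, 0.38 in pool 2, 0.30 in pool 3 and 0.081 in pool 4. The members higher in the superficial library numbered 75, 75, 73 and 60 in these 4 pools. In the saline pools 1, 2 and 3 the medians were -0.068, 0.0037 and 0.014, with 13, 40 and 41 members higher in the superficial library. All 4 cbx pools lay above all 3 saline pools, with cbx pool 4 closest to them. Whether a number stands for the same brains in both layers is not stated in the labels.

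**Figure D4:**
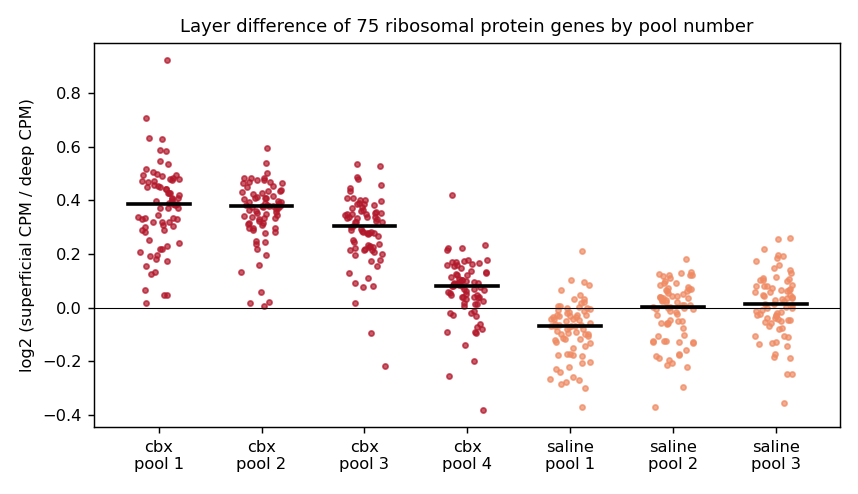
Log2 ratio of superficial to deep CPM for each of the 75 members (dots) within each library number, with the median as a line. The medians are 0.39, 0.38, 0.30 and 0.081 in cbx pools 1 to 4 and -0.068, 0.0037 and 0.014 in saline pools 1 to 3.

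The call rested on some libraries more than on others. Without cbx deep library 2, 26 members were called higher in place of 52, with a median log2 difference of 0.22. Library 2 had the lowest value of the 4 cbx deep libraries for 45 of the 75 members, and library 3 for 27. With the dependence on transcript length and GC content taken out of each library, 26 members were called higher and the median was 0.13; with the pool as a block as well 40 were called. Of the 52, 22 were called in every setting tried. Of the members named above, Rplp0 lost its call in 11 of 19 alternatives, Rplp2, Rpl3 and Rpl11 in 3 each and Rps6 in 2. Without saline pool 1 and cbx pool 4, the pools set apart by sex-linked genes, 53 members were called higher.

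Transcript length and cell makeup moved along with this comparison. Other genes at 10 CPM or more with transcripts no longer than 1160.5 bases, the third quartile of the members, numbered 628. Of these, 138 were higher and 37 lower in superficial against deep layers after cbx, with a median log2 difference of 0.12. Of all 10438 genes at 10 CPM or more, 2292 (22.0%) were higher and 1930 lower, with a median of 0.027. The share of the short transcripts called higher was thus near that of all such genes, while fewer were lower. All 7 meningeal fibroblast markers rose in the same comparison, and their summed level was 614 to 1150 CPM in cbx superficial against 39.1 to 53.7 CPM in cbx deep libraries. All 5 markers of dividing cells rose as well, with sums of 95.5 to 121 CPM against 52.6 to 59.0 CPM. Of 5 red blood cell markers 4 rose, with sums of 238 to 388 CPM against 128 to 187 CPM. Of 7 endothelial and pericyte markers 6 rose (median log2 difference 0.64), and of 7 astrocyte markers 4 rose and 1 fell (median 0.56). Of 6 neuron markers 1 rose and 4 fell (median -0.23), of 7 oligodendrocyte lineage markers 5 fell (median -0.46), and of 7 microglial markers 1 rose and 2 fell (median 0.012). The part of these cells in the ribosomal protein difference was not tested. After saline the same fibroblast sums were 471 to 698 CPM in superficial and 60.1 to 68.7 CPM in deep libraries, and dividing cell sums 88.3 to 104 CPM and 49.7 to 51.4 CPM; all markers of both lists rose. Red blood cell sums after saline were 149 to 230.5 CPM in superficial and 127 to 185 CPM in deep libraries, and 0 of the 5 markers passed in edgeR's test, nor was any at an unadjusted p under 0.05.

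After saline, 1 member differed between the layers: Rps2, at the entry of the messenger RNA channel, fell in the superficial layers. It had 237, 224 and 249 CPM in saline superficial, against 306, 289 and 319 CPM in saline deep libraries, with no overlap. The log2 difference was -0.37 (SE 0.12, adjusted p = 0.0371), and the call was lost with any of the 6 saline libraries left out. Of all genes, 9.67% were called higher and 8.73% lower in this comparison, so the members' 0 higher and 1 lower stood below that background. The members had a median log2 difference of -0.018, with 35 positive and 40 negative values. Rpl12 (-0.24, adjusted p = 0.108) and Rpsa (-0.22, adjusted p = 0.0966) had the next lowest values. Rps27l (0.18) and Rps9 (0.15) had the highest, and neither passed. With the pool as a block, Rps2 and 4 further members (5 in all) were called lower.

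Carbenoxolone against saline was compared within each layer, which sets the injected solutions against each other in a target tissue of the retina. Activity of the retina was not measured in these libraries. In the superficial layers 1 of 75 members passed: Rps27l, a paralog of Rps27 that p53 induces, rose after cbx. Of all genes 2.68% were called higher and 1.65% lower, so the members' share was below the background. All 75 differences were positive, with a median of 0.17 against 0.0094 for all genes tested. In edgeR's test 22 of the 75 members had an unadjusted p under 0.05. So had 4179 of all 20330 genes tested and 2624 of the 10438 at 10 CPM or more, which is not far from the members' share. The members vary together over libraries, so these 75 signs are not separate observations. Without cbx superficial library 1 the median was 0.080. With the trend in transcript length and GC content removed it was 0.051, and the 628 other short transcripts had a median of 0.13 in the same comparison.

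Rps27l had 26.9, 20.4, 19.9 and 20.3 CPM in cbx superficial, against 17.7, 16.2 and 17.3 CPM in saline superficial libraries. The 4 cbx libraries lay above the 3 saline ones, with library 1 well above the other 3. The log2 difference was 0.36 (SE 0.10, adjusted p = 0.0483), and it passed in 5 of the 18 alternative settings. Between the layers after cbx it had the largest difference of the members, 0.59 (SE 0.093, adjusted p = 5.54e-05), with 14.2, 14.6, 14.2 and 15.2 CPM in cbx deep libraries. In the deep layers its cbx and saline levels, 14.6 ± 0.466 and 15.1 ± 0.549 CPM (SD, n = 4 and 3), overlapped. Rps27 itself, per kb one of the more abundant members, had a log2 difference of 0.086 after cbx in the superficial layers (adjusted p = 0.741).

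Other members with a high value after cbx in the superficial layers were Rps26 (0.33, adjusted p = 0.150) and Rpl10 (0.30, adjusted p = 0.0733). Rps26 had 367, 259, 236 and 284 CPM in cbx superficial, against 235, 223 and 225 CPM in saline superficial libraries. The lowest values were those of Rpl17 (0.0064), Rpl29 (0.038) and Rpl37a (0.070). In these libraries all 7 microglial markers had positive values and 6 rose after cbx, with sums of 255 to 274 CPM in cbx superficial against 187 to 212 CPM in saline superficial libraries. All 7 meningeal fibroblast markers were also positive (3 rose, median log2 difference 0.51), as were all 5 red blood cell markers (1 rose, median 0.73) and all 5 markers of dividing cells (1 rose, median 0.17). Of 7 astrocyte markers 5 were negative (1 fell, median -0.22), and of 7 endothelial and pericyte markers 6 were negative and 0 passed in edgeR's test (median -0.19, 1 at an unadjusted p under 0.05). The part of these cells in the members' values was not tested.

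In the deep layers 0 members passed in edgeR's test after cbx, with 1.06% of all genes called higher and 0.777% lower. DESeq2 and limma-voom also called 0 members lower. Here 73 of 75 differences were negative, with a median of -0.14. The median was 0.0069 for all genes tested and -0.022 for genes at 10 CPM or more. In edgeR's test 10 of the 75 members had an unadjusted p under 0.05. So had 3118 of all 20330 genes and 2090 of the 10438 at 10 CPM or more, larger shares than the members'. The smallest adjusted p of a member was 0.160, for Rpl30. Rpl30 had 183, 143, 151 and 174 CPM in cbx deep, against 194, 183 and 204 CPM in saline deep libraries. Its log2 difference was -0.25 (SE 0.089). The highest cbx deep library, at 182.5 CPM, was just below the lowest saline deep library, at 183.3 CPM. Rpl30 was picked by its p-value between these groups, so this separation adds no support. Its share over all genes was not counted. Rpl17 (-0.29), Rpl37a (-0.26) and Rpl35a (-0.25) had the lowest differences. The median stayed between -0.18 and -0.11 with any 1 of the 7 deep libraries left out. Of 7 meningeal fibroblast markers 6 were negative in the same comparison, with a median log2 difference of -0.43, and 3 had an unadjusted p under 0.05. All 7 endothelial and pericyte markers were negative (median -0.20, 1 at an unadjusted p under 0.05), and of 7 astrocyte markers 6 were negative (median -0.21) and 1 fell. The part of these cells in the members' values was not tested.

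The layer comparisons and the cbx comparisons use the same 14 libraries, so their values are not independent of each other. The difference of the layer differences, cbx minus saline, was positive for all 75 members with a median of 0.31 on the log2 scale, against 0.0019 for all genes and 0.021 for genes at 10 CPM or more. No member passed in this interaction test, nor did any other gene (0% of 20330), and the smallest adjusted p of a member was 0.310. An unadjusted p under 0.05 was reached by 54 of the 75 members. It was reached by 1699 of all 20330 genes and by 865 of the 10438 at 10 CPM or more. DESeq2 also called 0 members, and 1 member passed with the pool as a block. That a layer difference passed after cbx and not after saline for most members is therefore not shown, gene by gene, to be a difference between the treatments.

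In the interaction Rpl23a, at the exit of the nascent peptide, had the highest value, 0.43 (SE 0.12). It had 223, 191, 172 and 184 CPM in cbx superficial and 177, 150, 153 and 172 CPM in cbx deep libraries. After saline it had 154, 158 and 174 CPM in superficial and 181, 176 and 197 CPM in deep libraries. The saline groups stood in the opposite order and did not overlap, while the cbx groups overlapped. Rpl23a was picked for its interaction value, so the opposite order adds no support. The share of such genes among all genes was not counted. Rps27l (0.41) and Rps26 (0.40) came next. The lowest were Rpl13a (0.11), Rpl41 (0.19) and Rps6 (0.20). With the length and GC trend removed, the members' median was 0.19. The 628 other short transcripts had a median of 0.14 in the interaction, with 551 positive values. All 7 meningeal fibroblast markers (median 0.85) and all 7 microglial markers (median 0.48) were positive with an unadjusted p under 0.05, and all 5 red blood cell markers were positive (median 0.67), 3 of them at that level. The part of these cells in the members' values was not tested.

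Within the groups the members moved as a block. The deviation of each member from its group means was set against the mean deviation of the other 74 members over the 14 libraries; the points share each library's depth and composition. The correlation had a median of 0.91, was above 0.8 for 54 members and above 0.5 for 72. Rps27a (0.98) was among those most like the rest. Library 1 of cbx superficial had the highest value of its group for 71 of 75 members, library 3 of saline superficial for 67, and library 3 of saline deep for 56. The mean of the members had a residual SD of 0.12 on the log2 scale, about that of a typical single gene at 10 CPM or more (median 0.11).

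Rpl26, Rpl35a and Rpl29 followed the other members least, with correlations of 0.015, 0.18 and 0.47. Rpl26, which sits by the exit tunnel and is known from human cells to bind the p53 messenger RNA, had 120, 143, 58.4 and 92.9 CPM in cbx superficial, against 75.7, 10.6 and 11.3 CPM in saline superficial libraries. In the deep layers it had 89.4, 103, 40.3 and 99.3 CPM after cbx, against 77.3, 11.96 and 9.83 CPM after saline. Saline pools 2 and 3 were low in both layers, while saline pool 1 was near the cbx libraries. The groups overlapped in both layers. Its log2 differences for cbx, 1.68 (SE 0.89, adjusted p = 0.325) in the superficial and 1.34 (SE 0.88, adjusted p = 0.540) in the deep layers, were the largest of the members and did not pass.

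Rpl35a, a large-subunit protein whose human counterpart is also mutated in Diamond-Blackfan anaemia, had 174, 105, 163 and 48.1 CPM in cbx superficial, against 83.9, 126 and 130 CPM in saline superficial libraries. It had 142, 90.3, 131 and 43.4 CPM in cbx deep, against 101, 138 and 124 CPM in saline deep libraries. Here cbx pool 4 was the low one in both layers, and the groups overlapped. Rpl35a was higher in the superficial than in the deep library in all 4 cbx pools. Each of the pair has 6 pseudogenes named after it in the annotation, and reads that could have been split between such copies make levels uncertain. Rpl23a has 14 and a correlation of 0.94 with the other members.

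**Figure D5:**
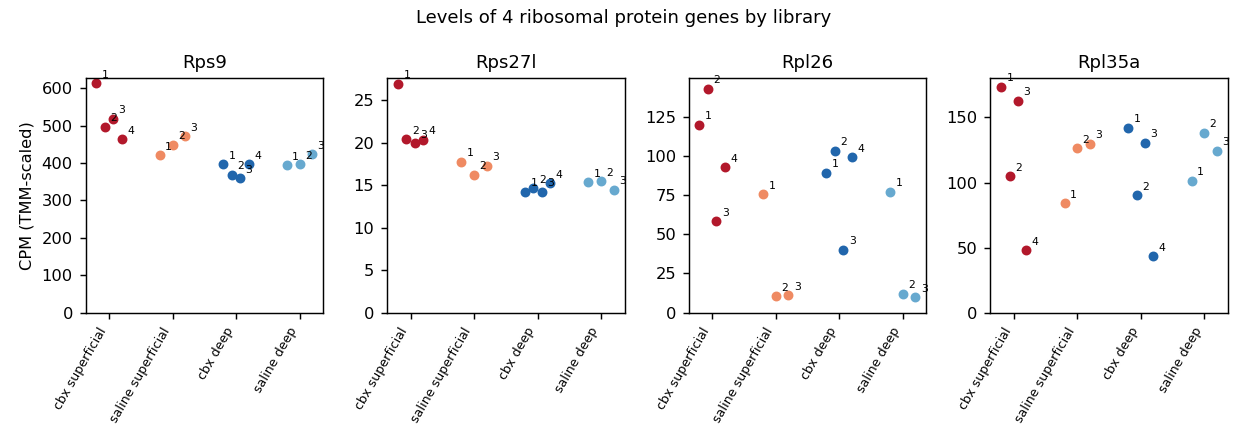
CPM of 4 members in each library, with library numbers beside the points. Rps9 and Rps27l are higher in cbx superficial than in cbx deep libraries; Rpl26 is near 10 CPM in saline libraries 2 and 3 of both layers, and Rpl35a is lowest in cbx library 4 of both layers.

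Genes that work with the ribosome were counted over lists in the same fits. Of 24 other genes with TOP messenger RNAs, 16 rose in superficial against deep layers after cbx and 0 fell; the median difference was 0.22 on the log2 scale. Among them were Hnrnpa1 (0.42, adjusted p = 7.37e-05), Tpt1 (0.41, adjusted p = 0.000438) and Btf3 (0.39, adjusted p = 0.000814), a subunit of the nascent polypeptide-associated complex. Rack1 (0.39, adjusted p = 0.00136) and Fau (0.25, adjusted p = 0.0415), which belong to the ribosome but not to the rule, also rose. After saline 1 of the 24 rose, Hnrnpa1 (0.27), and 1 fell, Eef1d (-0.20), and the median was 0.042. In the interaction all 24 values were positive with a median of 0.22, and 0 passed in edgeR's test, with 9 at an unadjusted p under 0.05.

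Of 36 factors of initiation, elongation and release outside the TOP list, 7 rose and 1 fell between the layers after cbx, with a median of 0.10. Their share called higher, like that of the biogenesis and mTORC1 lists that follow, was near the 18.1% of all genes and 22.0% of genes at 10 CPM or more. Eif4ebp1, the repressor of Eif4e, rose (1.59, adjusted p = 1.55e-07), Eif4ebp2 rose (0.44, adjusted p = 1.20e-05), and Eef1a2, the elongation factor form of mature neurons, fell (-0.53, adjusted p = 2.75e-05). The TOP-regulated form Eef1a1 rose in the same comparison (0.31, adjusted p = 0.00112). Of 47 genes of ribosome biogenesis 9 rose and 1 fell, with a median of 0.11. Dkc1 (0.35), the pseudouridine synthase of ribosomal RNA, and Sbds (0.30), which releases Eif6 from the new large subunit, rose, and Nop56 (-0.24), of the box C/D particles, fell.

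In mTORC1 signalling and the control of TOP messenger RNAs 6 of 29 genes rose and 3 fell between the layers after cbx, with a median of 0.086. Sesn1 (0.41, adjusted p = 4.70e-05), an inhibitor of mTORC1, and Lamtor5 (0.45, adjusted p = 0.00253), of its lysosomal anchor, rose. Mtor itself (-0.28, adjusted p = 0.0413) and Larp1 (-0.22, adjusted p = 0.00651) fell. Of 12 genes of ribosome quality control and nucleolar stress, Trp53 rose (0.75, adjusted p = 1.02e-06) and Cdkn1a, a target of p53, fell (-0.38, adjusted p = 0.000610). Both also passed after saline, with values of 0.52 and -0.33.

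Mitochondrial ribosomal proteins, which are also encoded in the nucleus, served as a second ribosome. Of 77 such genes 6 rose in superficial against deep layers after cbx and 0 fell, with a median of 0.12. Nuclear-encoded subunits of the respiratory chain, likewise short and abundant, had 4 higher and 2 lower of 77, with a median of 0.019. In both lists the share called higher was below the 18.1% of all genes and 22.0% of genes at 10 CPM or more. For cbx against saline in the superficial layers, 5 of 77 mitochondrial ribosomal genes rose (median 0.12), where 2.68% of all genes were called higher. Of the respiratory chain genes 0 passed in edgeR's test (median 0.079, 5 at an unadjusted p under 0.05). In the deep layers the medians were 0.028 for mitochondrial ribosomal proteins and -0.040 for the respiratory chain, beside -0.14 for the members.

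A few genes of the lists passed after cbx within a layer. In the superficial layers Eif5b (0.35, adjusted p = 0.00686), which joins the subunits, and Eif4ebp1 (0.62, adjusted p = 0.0354) rose, as did the TOP gene Eef1d (0.22, adjusted p = 0.0386) and the kinase gene Rps6ka1 (0.35, adjusted p = 0.0229). Of the biogenesis genes Nop16 (0.48, adjusted p = 0.0215) and Ltv1 (0.60, adjusted p = 0.0113), an assembly factor of the small subunit, rose. Ltv1 also rose in the deep layers (0.68, adjusted p = 0.00877), where it was the only gene of the 5 translation lists that passed after cbx.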

How the data were processed

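The authors deposited whole-number read counts per gene, in 14 tables that list the same 55359 Ensembl gene IDs. STAR 2.7.9d, featureCounts, Subread 2.0.1, SAMtools 1.14 and FastQC 0.11.9 stand in the submitters' processing notes, which name GRCm39 and mm10 without a role. The annotation and strand setting of the counting are not given there, so overlapping, antisense and near-identical genes cannot be told apart. Symbols were matched by ID for 52083 IDs, with 98.7% of counts. Gene types, transcript lengths, GC content and exon overlaps came from GENCODE M21.

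The analysis ran in edgeR 4.0.16 (R 4.3.3): filterByExpr by group (20330 genes), TMM factors, and a robust quasi-likelihood fit of 4 group means to 14 libraries (10 residual degrees of freedom), with Benjamini-Hochberg adjustment over all genes and a threshold of 0.05. Values of CPM per library and of CPM per kb are TMM-scaled. Mean CPM over all libraries, used for the minimum and for levels between genes other than per kb, is unscaled. Correlations and pool medians used log2 CPM with a prior count of 2. The fit takes the libraries as independent.

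The members and gene lists were chosen with earlier results of these data known, so no pattern here is independent support for those results, and no list was tested as a set. Genes named were those that passed (up to 10 per comparison), the 3 highest and lowest values per comparison, the ends of the level and likeness orders, the edge of the minimum, a written list of members of known role, and up to 3 genes per list; Eef1a1, Mtor and Rpl30 were named after their values were seen. Some genes that this rule names are not reported here.

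Deviations from group means of same-numbered libraries, over genes at 10 CPM or more, correlated at 0.325 to 0.664 between the layers of 1 treatment in all 7 pairs, and at -0.410 to -0.0489 between treatments. Over all tested genes the correlations were weaker, 0.0050 to 0.180 between the layers and -0.108 to 0.00689 between treatments. The numbers were taken to pair the layers, on the data and not the labels. Differently numbered libraries of 1 treatment were not set against each other. Between the 18 pairs of libraries of a group, the chi-square over genes was 7.66 to 51.5 on average, so each pair differed by more than sampling noise. Alternatives were median-of-ratios size factors, TMM without the members, other low-count filters, the DESeq2 1.42.0 Wald test, limma-voom (limma 3.58.1), a fit to the compared groups alone, omission of each library in turn, saline pool 1 and cbx pool 4 left out, a replicate block, and removal of a spline on transcript length and GC content from each library (available for 99.6% of tested genes).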

Additional observations from a re-analysis of the deposited data

Results flagged for a closer look

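In 86 groups of 4 cbx libraries (42 named members and the share of counts, in each layer), the highest or lowest library was set against the spread of the others, and 4 stood apart. A gap of this size appears by chance in about 1 of 20 such groups. In cbx superficial, library 1 was far above the other 3 for Rpl19 at 401 CPM, for Rpl23 at 360 CPM and for Rps27l at 26.9 CPM. Library 2 was below the other 3 for Rpl29 at 94.8 CPM.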

How the results depend on the processing

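The direction of the members' median held in every alternative for cbx against saline in each layer, for the layers after cbx and for the interaction; after saline it ran from -0.066 to 0.029 with a library left out. For cbx against saline in the superficial layers (1 called higher), the count was 0 with median-of-ratios factors, a filter of 1 CPM in 3 libraries, limma-voom, only the groups compared, without saline pool 1 and cbx pool 4, with the replicate block, and with the length and GC trend removed, alone or with the replicate block. It was 8 with no low-count filter, 4 with DESeq2 and 0 to 3 with a library left out. In the deep layers (0 called lower) it was 1 with no filter, 1 with only the groups compared, 4 with the trend removed and 2 with the replicate block added. Between the layers after saline (1 called lower) it was 2 with no filter, 2 with DESeq2, 6 with only the groups compared, 0 without those pools, 5 with the replicate block, 4 with the trend removed, 12 with both, and 0 with any library left out. Between the layers after cbx (52 called higher) it was 26 with the trend removed, where the median was 0.126 (with the replicate block added, 40 and 0.126), and 26 to 56 with a library left out; 67 passed with the replicate block. In the interaction (0 called), 1 passed with no filter, 1 with the replicate block and 1 with the trend removed as well. Rpsa turned to -0.14 between the layers after cbx (adjusted p = 0.0471) with the trend removed and the replicate block. The share of counts in saline deep libraries was 2.34% on TMM-scaled CPM and 2.37% without mitochondrial genes and the gene with the most counts. In saline superficial libraries it was 2.28% and 2.41%. The order of the 2 layers after saline therefore turned with TMM scaling. The causes were not tested. With 3 or 4 pools a group, the standard error of a member's log2 difference had a median of 0.091 for cbx against saline in the superficial layers.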

Other observations

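Superficial and deep libraries of the same number shared the levels of Rpl26 and Rpl35a closely, although same-numbered libraries are not labelled as the same brains. In cbx pools 1, 2, 3 and 4 Rpl26 had 120, 143, 58.4 and 92.9 CPM in the superficial and 89.4, 103, 40.3 and 99.3 CPM in the deep layers. No explanation of these levels was tested.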
